A study of Mus musculus with 6 samples.

Results

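The genes described here belong to families of enzymes that add or remove chemical marks on histones and DNA, together with the core subunits of one such complex. Not all act on histones or DNA, as Setd3 and Hdac10 are known for other substrates, and Sirt3 and Sirt4 are mitochondrial. All genes were chosen by symbol (Kdm, Kmt, Setd, Hdac, Sirt and Dnmt genes with a number, Tet1 to Tet3, Ezh1, Ezh2, Eed, Suz12, Ep300 and Crebbp). They also had to reach a level of at least 1 FPKM in at least 3 libraries. FPKM is the number of sequenced fragments scaled for transcript length and library size. Of the 63 genes with such a symbol, 58 passed the FPKM limit, out of 10138 genes in all that passed it among the 18046 listed. The 5 below the limit were Kdm4d (at most 0.83 FPKM in any library), Hdac11 (0.71), Hdac9 (0.48), Tet1 (0.22) and Dnmt3l (0.14). The members nearest to the limit from above were Kdm7a, with a lowest value of 1.14 FPKM, and Tet2, with 2.28 FPKM.

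The 6 RNA-seq libraries came from T cells of C57BL/6 mouse spleen, labelled with an age of 3 weeks. In both groups, naive CD4+ cells had been stimulated through CD3 and CD28 with antibodies for 3 days in Th1-polarizing culture. The LPC group (n = 3) received 20 µM LPC during that time and the vehicle group (n = 3) received vehicle. The labels neither expand LPC nor name the vehicle, and they leave out if replicates were different mice or dishes. The p-values therefore cover the spread among these libraries alone, which may be technical.

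Histone methylation works as a set of opposed activities. Writers of the Polycomb repressive complex PRC2 place trimethyl marks on lysine 27 of histone H3 (H3K27), which go with silent genes, and the KDM6 demethylases remove them, while methyl marks on lysine 4 (H3K4) go with active promoters and enhancers. Acetylation of histones by p300 and CBP goes with active chromatin, and histone deacetylases (HDACs) and sirtuins take the acetyl groups off. DNA methyltransferases place methyl groups on the cytosine of CpG dinucleotides, and TET enzymes oxidise them. In helper T cells these enzymes act at cytokine and lineage factor genes when naive cells differentiate.

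The libraries had similar estimated depth, 18.75 to 19.25 M reads by the steps between low FPKM values, and 10002 to 10139 genes at 1 FPKM or more. The 5 T cell markers in the files (Cd3e, Cd3d, Cd3g, Cd4 and Lck) summed to 825 to 909 FPKM in LPC libraries and 861 to 913 FPKM in vehicle libraries. Among them Cd4 was at 143.89 to 177.07 FPKM in LPC libraries and 185.33 to 205.20 FPKM in vehicle libraries, without overlap. The groups overlapped for Cd3e, Cd3d, Cd3g and Lck. Markers of B cells, myeloid cells, neutrophils and NK cells each summed, per cell type, to at most 0.58 FPKM in any library, and Ncr1 was listed at 0 throughout. Myeloid markers summed to 0.23 to 0.35 FPKM in LPC libraries and 0.01 to 0.07 FPKM in vehicle libraries. Cd8a stayed at or under 0.33 FPKM, while Cd8b1 was at 10.57 to 12.55 FPKM in LPC libraries and 13.35 to 14.19 FPKM in vehicle libraries. The part of these markers in the results was not tested. In bulk RNA, fewer cells of a type and less RNA per cell cannot be told apart. LPC replicate 3 stood apart from the other libraries, with the highest FPKM sum (641026, against 556561 to 588274 in the other 5) and the smallest share of genes at 0 (17.9%, against 19.4% to 20.2%). Calls of members that were lost without it are named beside their values.

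The promoters of 3 changed members are shown, those whose entry has bases before the annotated gene. CpG is the dinucleotide on which the DNA methylating members themselves act, and these promoters differ widely in it. They are RefSeq sequences of GRCm38.p6, 5′ to 3′ on the strand of the gene, limited to bases before the annotated gene and outside GENCODE exons, and capitals mark CpG dinucleotides. The first is of Kdm3a, which rose, from chr6:71632991-71633167 on the minus strand. The second is of Kdm7a, which fell, from chr6:39206790-39207023 on the minus strand. The third is of Hdac7, which fell, from chr15:97844503-97844752 on the minus strand.
Kdm3a: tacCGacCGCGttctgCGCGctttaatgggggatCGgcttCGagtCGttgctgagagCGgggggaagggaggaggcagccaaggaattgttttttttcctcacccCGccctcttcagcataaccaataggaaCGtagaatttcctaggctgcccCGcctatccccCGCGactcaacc
Kdm7a: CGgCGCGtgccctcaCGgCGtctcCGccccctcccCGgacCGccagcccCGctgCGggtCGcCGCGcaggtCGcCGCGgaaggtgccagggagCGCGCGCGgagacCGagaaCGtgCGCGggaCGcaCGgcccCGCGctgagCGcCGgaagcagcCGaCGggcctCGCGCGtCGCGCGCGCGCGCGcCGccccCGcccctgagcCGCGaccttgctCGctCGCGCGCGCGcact
Hdac7: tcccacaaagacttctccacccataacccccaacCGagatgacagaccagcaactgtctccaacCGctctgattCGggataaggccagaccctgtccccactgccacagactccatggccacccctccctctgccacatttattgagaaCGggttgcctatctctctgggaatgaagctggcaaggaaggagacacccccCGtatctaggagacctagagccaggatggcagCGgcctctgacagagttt
These stretches hold 14 CpG in 177 bases for Kdm3a, 52 in 234 bases for Kdm7a and 6 in 250 bases for Hdac7. Over the 250 bases before the outermost start in the RefSeq table, the 47 members with an entry had a median of 20 CpG, against 17 for the 8226 tested genes with one. A CCAAT motif on either strand lay in the 250 bases of 38.3% of members and 37.6% of tested genes, and the GC box GGGCGG in 61.7% and 61.3%. The core motif of hypoxia-inducible factors, ACGTG or GCGTG on either strand, lay in 48.9% of members and 58.9% of tested genes. Of the 7 changed members 5 had an entry, and those of Setd5 and Tet2 lie inside the annotated genes, so they are not printed.

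By level the members ranged widely. The median member had a mean of 10.5 FPKM over the 6 libraries, against 13.7 FPKM for the median tested gene, and 28 members lay under 10 FPKM. The 7 members at 50 FPKM or more were the class IIa deacetylase gene Hdac7 (mean 113 FPKM), the class I deacetylase gene Hdac1 (95.8), the deacetylase gene Sirt2 (95), the PRC2 methyltransferase gene Ezh2 (63.1), the maintenance DNA methyltransferase gene Dnmt1 (59.0), the H4K20 methyltransferase gene Kmt5a (55.2) and the PRC2 subunit gene Eed (53.9). The ranges over the 6 libraries overlapped between each neighbouring pair in this order except Sirt2 and Ezh2.

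With LPC, 2 members rose (Kdm3a and Hdac1) and 5 fell (Kdm6b, Hdac7, Setd5, Tet2 and Kdm7a) at an adjusted p under 0.05, and 51 did not pass. The test was limma on log2(FPKM + 1) of all 10138 tested genes with Benjamini-Hochberg adjustment over all of them, and log2 changes here are LPC minus vehicle on that scale, which understates changes of low genes. The calls made up 12.1% of members, near the 13.7% called among all tested genes. By direction, 3.45% of members were called higher, against 5.82% of all tested genes, and 8.62% were called lower, against 7.91% of all tested genes. The 2 groups of libraries stood apart for 16 members (27.6%), against 34.5% of all tested genes. In 11 of the 16 the LPC libraries were below (19.0% of members, against 20.7% of all tested genes) and in 5 above (8.62%, against 13.7%). These shares lie near or below those of all tested genes, so the counts are not a result about these enzymes as a set. The absolute log2 change was under 0.25 for 41 of 58 members and 0.5 or more for 1, Kdm6b. The number of calls moved with the processing, to 4 higher and 4 lower after centring each library on its median, and to 5 higher and 10 lower once each library's trends with GC share and transcript length were removed. With no filter on low values, when 16899 genes were tested, Kdm6b alone passed. Without LPC replicate 3 there were 1 higher and 2 lower, without LPC replicate 1 again 1 and 2, without LPC replicate 2 there were 1 and 8, without vehicle replicate 1 there were 0 and 1, without vehicle replicate 2 there were 1 and 2, and without vehicle replicate 3 there were 0 and 5.

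**Figure D1:**
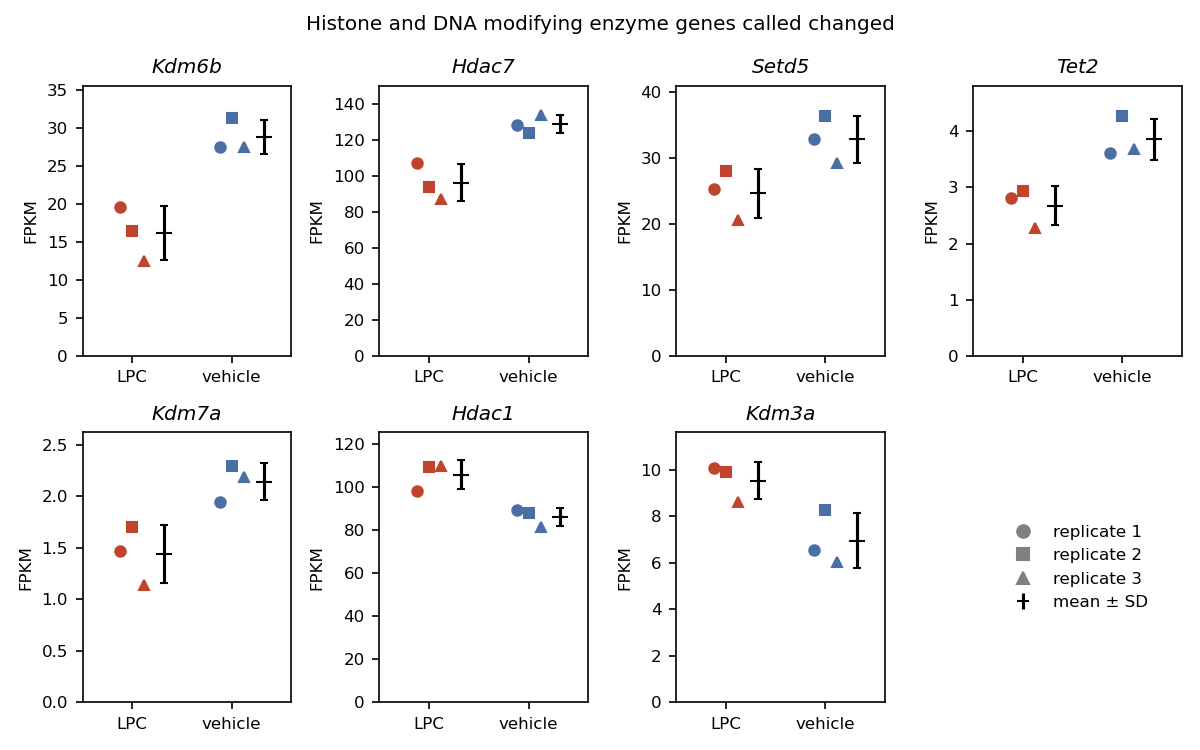
FPKM of the 7 changed members in each library, LPC (red) on the left and vehicle (blue) on the right of each panel, with the mean and SD of 3 libraries in black and the replicate number shown by the marker. LPC and vehicle libraries do not overlap in any of the 7 panels, and LPC replicate 3 is the lowest point for the 5 members that fell.

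The H3K27 demethylase gene Kdm6b (JMJD3 protein) fell most among the members. It was listed at 19.63, 16.45 and 12.46 FPKM in LPC replicates 1 to 3, against 27.45, 31.35 and 27.53 FPKM in vehicle replicates 1 to 3. All LPC libraries lay below all vehicle libraries, and LPC replicate 3 was lowest. Kdm6b averaged 16.2 ± 3.59 FPKM with LPC and 28.8 ± 2.23 FPKM with vehicle (SD, n = 3 each), 43.8% lower in the mean, with a log2 change of -0.81 (SE 0.13, 95% interval -1.1 to -0.53, limma adjusted p = 0.0022). It passed under each of the 14 alternatives, and its log2 change was -0.65 without LPC replicate 3 (adjusted p = 0.00167) and -0.79 once GC and length trends were removed (adjusted p = 0.000444). The gene lies on chromosome 11 of GRCm38 at 69398508 to 69420367, and 4.11% of its exon bases are overlapped on the opposite strand, mainly by the antisense gene Kdm6bos. Whether the libraries kept strand is not given in the sources used here.

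Its relative Kdm6a (UTX protein), an X-linked demethylase of the same mark, was listed at 5.16, 5.66 and 3.72 FPKM with LPC and 5.0, 5.31 and 4.80 FPKM with vehicle, and did not pass (log2 change -0.06, interval -0.33 to 0.20, adjusted p = 0.781). Of the summed FPKM of both demethylases, Kdm6b held 79.2%, 74.4% and 77.0% in LPC replicates 1 to 3, against 84.6%, 85.5% and 85.2% in vehicle replicates 1 to 3. These shares did not overlap between the groups. They largely repeat the fall of Kdm6b and are not a separate result.

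None of the 4 PRC2 core genes, the writers of the mark that Kdm6b removes, passed the test. Ezh2, the catalytic subunit of dividing cells, was listed at 59.04, 69.98 and 61.60 FPKM with LPC and 59.54, 69.64 and 58.73 FPKM with vehicle (log2 change 0.02, interval -0.19 to 0.23, adjusted p = 0.912), and its sign turned under several alternatives. Ezh1, the less active paralog found also in resting cells, was listed at 7.29, 7.14 and 6.28 FPKM with LPC and 8.40, 8.32 and 8.70 FPKM with vehicle. The Ezh1 groups did not overlap, but the gene did not pass (log2 change -0.26, adjusted p = 0.0821). It passed once GC and length trends were removed (log2 change -0.20, adjusted p = 0.0457). Eed, which binds the trimethyl mark, averaged 50.1 ± 5.39 FPKM with LPC and 57.7 ± 4.40 FPKM with vehicle (-0.20, adjusted p = 0.182), and the scaffold gene Suz12 averaged 36.8 ± 4.37 and 39.7 ± 1.55 FPKM (-0.11, adjusted p = 0.471). The summed FPKM of the 4 genes was 147 to 174 with LPC and 160 to 182 with vehicle, ranges that overlap.

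**Figure D2:**
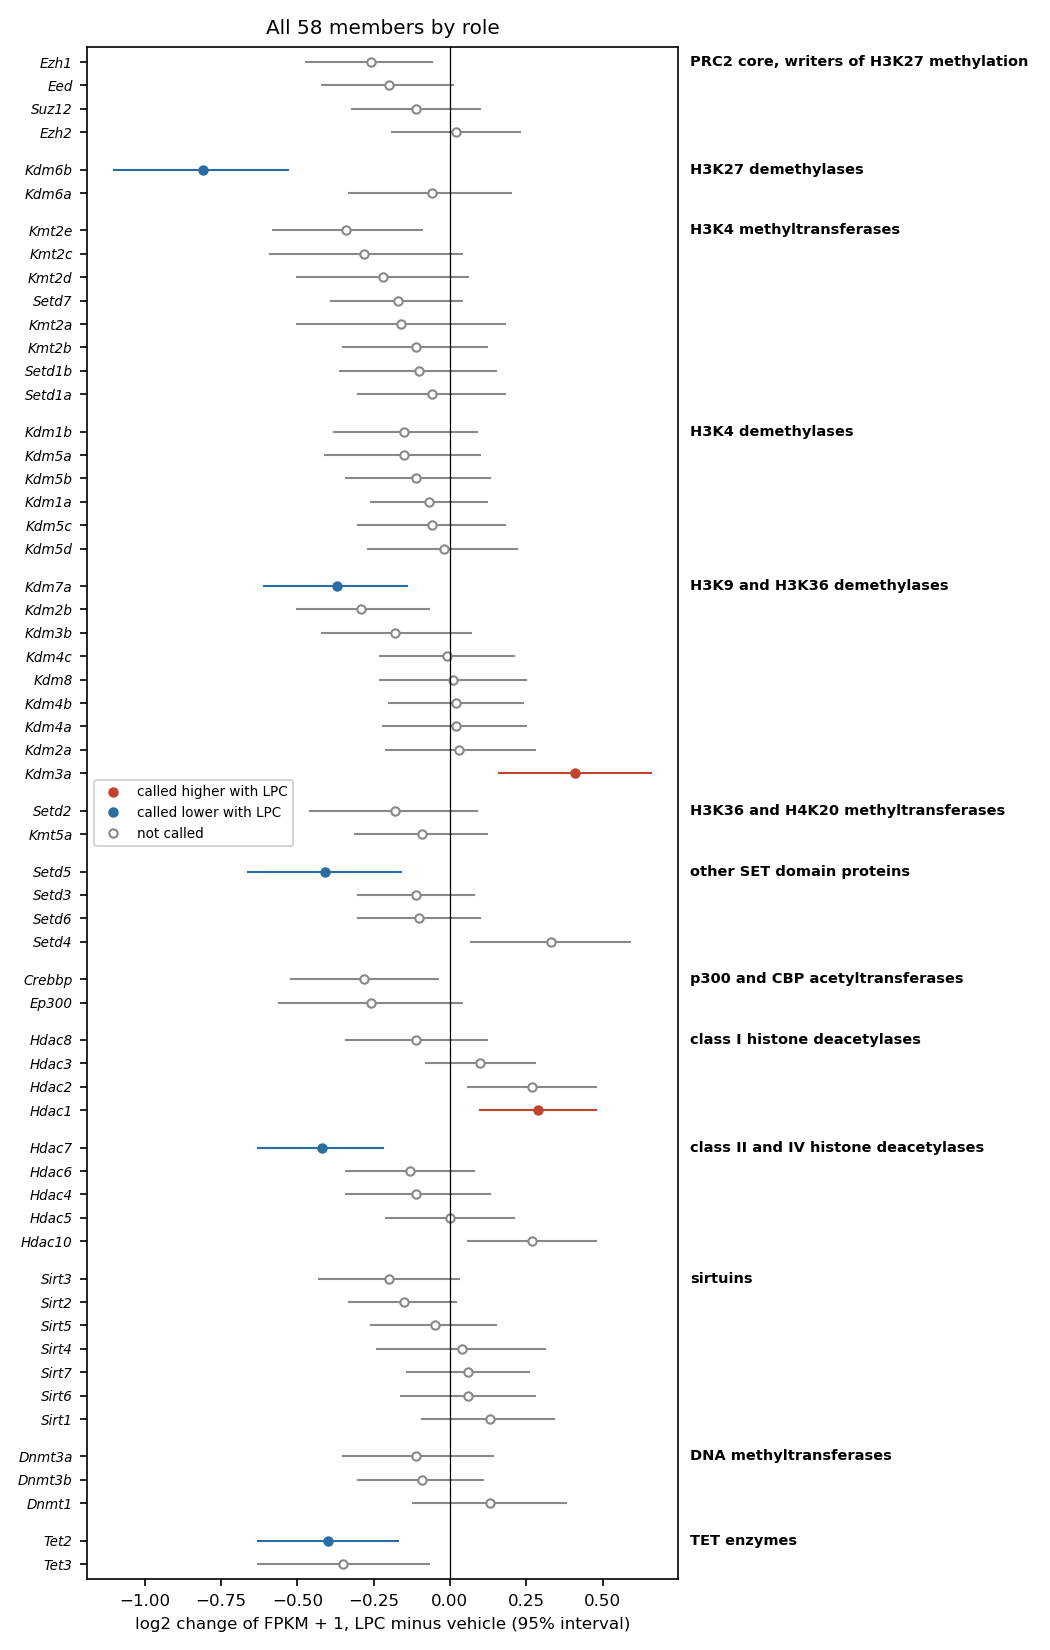
Log2 change of FPKM + 1, LPC minus vehicle, with its 95% interval for all 58 members, grouped by role from top to bottom. Filled red points were called higher (Kdm3a, Hdac1), filled blue points lower (Kdm6b, Hdac7, Setd5, Tet2, Kdm7a), and open grey points did not pass. The interval of Kdm6b, from -1.1 to -0.53, lies farthest from 0.

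Among writers of H3K4 methylation and their relatives, 0 of 8 passed, and all 8 had log2 changes below 0, from -0.34 to -0.06. Of all members 72.4% were below 0, and of all tested genes 58.3%. The 8 genes share the same 6 libraries, so their common sign is not a result about this group. Kmt2e, a SET domain protein related to this family, had the lowest value and was named after its values were seen. It was listed at 14.83, 15.78 and 11.77 FPKM with LPC and 17.38, 19.93 and 16.75 FPKM with vehicle, without overlap (-0.34, adjusted p = 0.0649). It was past the threshold with GC and length trends taken out (-0.19, adjusted p = 0.0492) and without LPC replicate 2 (-0.42, adjusted p = 0.0339). The MLL1 gene Kmt2a averaged 9.70 ± 2.51 FPKM with LPC and 10.8 ± 1.74 FPKM with vehicle (-0.16, adjusted p = 0.532). Kmt2d, a main writer of H3K4 monomethylation at enhancers, averaged 8.82 ± 1.59 and 10.4 ± 1.37 FPKM (-0.22, adjusted p = 0.282). Kmt2c, its paralog and the lowest of the group, averaged 4.42 ± 1.1 and 5.52 ± 0.864 FPKM (-0.28, adjusted p = 0.22). It was past the threshold only with replicate number added to the model (adjusted p = 0.028). Setd1a, which encodes a main writer of H3K4 trimethylation and had the highest level of the group, averaged 22.8 ± 3.15 and 23.7 ± 2.44 FPKM (-0.06, adjusted p = 0.772). Of the exon bases of Setd1a, 52.3% are shared with an annotated gene on the same strand, so its level is less certain. In each of these 5 genes LPC replicate 3 was the lowest of the 6 libraries. Without it the log2 changes were 0.04 for Kmt2a, 0.05 for Setd1a, -0.10 for Kmt2c and -0.07 for Kmt2d.

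The 6 H3K4 demethylases gave 0 calls, with log2 changes from -0.15 to -0.02. The LSD1 gene Kdm1a averaged 22.7 ± 1.40 FPKM with LPC and 23.8 ± 0.797 FPKM with vehicle (-0.07, interval -0.26 to 0.12, adjusted p = 0.642). Kdm5a, a demethylase of trimethylated H3K4, averaged 7.46 ± 1.41 and 8.33 ± 0.461 FPKM (-0.15, adjusted p = 0.407), with a log2 change of -0.02 without LPC replicate 3. The X-linked Kdm5c was the highest of the group at 26.3 ± 4.08 and 27.2 ± 1.86 FPKM (-0.06, adjusted p = 0.762), and its Y-linked paralog Kdm5d the lowest at 3.20 ± 0.261 and 3.28 ± 0.574 FPKM (-0.02, adjusted p = 0.916). Kdm5d was detected in all 6 libraries.

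Of 9 demethylases of H3K9 and H3K36, 1 rose, 1 fell and 7 did not pass, with a median log2 change of 0.01. Kdm3a, which removes methyl groups from H3K9 and is known as a hypoxia-responsive gene, rose, with 10.07, 9.88 and 8.61 FPKM in LPC replicates 1 to 3, against 6.55, 8.27 and 6.03 FPKM in vehicle replicates 1 to 3. All 3 LPC libraries lay above the vehicle libraries, closest between LPC replicate 3 and vehicle replicate 2. The log2 change was 0.41 (SE 0.12, limma adjusted p = 0.0331), 37.0% higher in the mean. Kdm3a passed without LPC replicate 3 (0.48, adjusted p = 0.018), but not without LPC replicate 1 (adjusted p = 0.117), LPC replicate 2 (0.0602), or either of vehicle replicates 1 (0.131) and 3 (0.112), in fits where its log2 change was 0.33 to 0.39. The gene lies on chromosome 6 at 71588970 to 71632990.

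Kdm7a, a demethylase of H3K9 and H3K27 and the lowest of all members, fell, with 1.47, 1.70 and 1.14 FPKM with LPC, against 1.94, 2.29 and 2.19 FPKM with vehicle. The groups did not overlap, and the log2 change was -0.37 (SE 0.11, adjusted p = 0.0392). With a transcript of 9566 bases it is among the longer members, and it did not pass once GC and length trends were removed (-0.18, adjusted p = 0.128). It also did not pass without LPC replicate 1 (0.0955) or 3 (0.108), without vehicle replicate 1 (0.0757), 2 (0.137) or 3 (0.0805), or with quantile normalization (0.0668), and it passed in 4 of the 14 alternatives. The other 7 genes of this group did not pass. Kdm2b, an H3K36 demethylase and subunit of a variant Polycomb complex, was named after its values were seen. It was listed at 36.56, 38.36 and 30.92 FPKM with LPC and 44.86, 44.70 and 39.87 FPKM with vehicle, without overlap (-0.29, adjusted p = 0.0701). It was past the threshold with GC and length trends taken out (-0.24, adjusted p = 0.0202) and without LPC replicate 2 (-0.35, adjusted p = 0.0372), and 26.4% of its transcript is shared with other annotated genes. Kdm4a, the highest of the group, averaged 40.4 ± 6.09 and 39.6 ± 2.31 FPKM (0.02, adjusted p = 0.934).

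Setd5, a SET domain protein reported to act with deacetylase corepressor complexes, fell, with 25.30, 28.00 and 20.55 FPKM in LPC replicates 1 to 3, against 32.87, 36.36 and 29.24 FPKM in vehicle replicates 1 to 3. The groups did not overlap, with LPC replicate 2 nearest to vehicle replicate 3. The log2 change was -0.41 (SE 0.12, limma adjusted p = 0.0352) and -0.29 once GC and length trends were removed (adjusted p = 0.0129). It did not pass without LPC replicate 1 (adjusted p = 0.0864) or 3 (0.0788), without vehicle replicate 1 (0.112) or 2 (0.141), or after median centring (0.0542). Setd2, which writes H3K36 trimethylation along transcribed genes, averaged 12.5 ± 2.51 FPKM with LPC and 14.3 ± 1.34 FPKM with vehicle (-0.18, adjusted p = 0.348), and Kmt5a averaged 53.3 ± 5.53 and 57.0 ± 5.49 FPKM (-0.09, adjusted p = 0.556). Setd3, the actin histidine methyltransferase, shares 64.8% of its transcript with other annotated genes at 95% identity or more and averaged 31.5 ± 2.47 and 34.2 ± 0.811 FPKM (-0.11, adjusted p = 0.403). Setd4, the lowest of the SET domain group, averaged 6.32 ± 1.18 and 4.79 ± 0.537 FPKM with overlapping groups (0.33, adjusted p = 0.0881, not past the threshold). It was past the threshold without LPC replicate 2 (0.43, adjusted p = 0.0369) and with replicate number added to the model (adjusted p = 0.0203). With GC and length trends also taken out it passed narrowly (0.29, adjusted p = 0.0499).

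The acetyltransferase genes did not pass. Ep300, which encodes p300, was listed at 16.80, 18.82 and 12.37 FPKM with LPC and 19.46, 21.94 and 16.25 FPKM with vehicle (-0.26, interval -0.56 to 0.04, adjusted p = 0.229). Crebbp, which encodes CBP, was listed at 5.30, 5.0 and 4.30 FPKM with LPC and 6.28, 6.82 and 5.32 FPKM with vehicle (-0.28, interval -0.52 to -0.04, adjusted p = 0.106). Without LPC replicate 3, the lowest library for both, the log2 changes were -0.10 for Ep300 (adjusted p = 0.627) and -0.21 for Crebbp (adjusted p = 0.231). The Crebbp groups did not overlap, by a narrow margin, and those of Ep300 did. Both genes passed in the fit with replicate number added to the model (limma adjusted p = 0.0202 for Ep300 and 0.0222 for Crebbp).

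Among deacetylases, one class I gene rose and one class IIa gene fell. Hdac1, a catalytic subunit of the NuRD, Sin3 and CoREST corepressor complexes, was listed at 97.90, 109.00 and 109.77 FPKM in LPC replicates 1 to 3, against 89.16, 87.61 and 81.11 FPKM in vehicle replicates 1 to 3. All LPC libraries lay above the vehicle libraries, and the log2 change was 0.29 (SE 0.09, limma adjusted p = 0.0431), 22.8% higher in the mean. Hdac1 passed without LPC replicate 1 (0.35, adjusted p = 0.0443), but not without LPC replicate 2 (0.0619) or 3 (0.0657), without vehicle replicate 1 (0.119), 2 (0.132) or 3 (0.157), or with quantile normalization (0.0858). Of its transcript, 71.1% matches transcripts of 2 other annotated genes at 95% identity or more, so its level is uncertain to the extent that reads were divided among them. Its partner Hdac2 was listed at 46.07, 55.80 and 51.56 FPKM with LPC and 39.79, 45.53 and 41.13 FPKM with vehicle. The Hdac2 groups did not overlap, but it did not pass (0.27, adjusted p = 0.076). It passed after median centring (0.32, adjusted p = 0.0489) and once GC and length trends were removed (0.34, adjusted p = 0.00657). Hdac3, the enzyme of the NCoR and SMRT corepressors, averaged 32.7 ± 0.549 and 30.4 ± 0.800 FPKM (0.10, adjusted p = 0.426), and Hdac8, the lowest of the class, 9.40 ± 1.24 and 10.2 ± 0.780 FPKM (-0.11, adjusted p = 0.512). The summed FPKM of the 4 class I genes was 185, 208 and 204 with LPC and 170, 175 and 162 with vehicle, without overlap. Hdac1 alone held 52.4% to 53.8% of this sum with LPC and 50.1% to 52.6% with vehicle. The sum therefore largely repeats the Hdac1 values, with their uncertainty, and is not a result about the class.

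Hdac7, a class IIa deacetylase that represses target genes in the T lineage and leaves the nucleus after T cell receptor signalling, fell, with 107.47, 93.81 and 87.35 FPKM in LPC replicates 1 to 3, against 128.60, 124.09 and 133.97 FPKM in vehicle replicates 1 to 3. The lowest vehicle library lay above the highest LPC library. Hdac7 averaged 96.2 ± 10.3 FPKM with LPC and 129 ± 4.95 FPKM with vehicle (SD, n = 3 each), 25.4% lower in the mean. The log2 change was -0.42 (SE 0.10), with a limma adjusted p of 0.0121. It passed without LPC replicate 3 (-0.36, adjusted p = 0.0194) and once GC and length trends were removed (-0.43, adjusted p = 0.00136), but not without vehicle replicate 1 (-0.42, adjusted p = 0.0569) or with no filter on low values (adjusted p = 0.054). The gene lies on chromosome 15 at 97792661 to 97844502. Hdac7 held 84.4%, 83.8% and 84.7% of the summed FPKM of Hdac4, Hdac5 and Hdac7 with LPC, against 87.4%, 87.1% and 88.0% with vehicle. These shares largely repeat the fall of Hdac7. Hdac10, a class IIb enzyme known to deacetylate polyamines and the lowest of the class II genes, was listed at 6.13, 5.51 and 5.74 FPKM with LPC and 4.60, 4.32 and 4.99 FPKM with vehicle. Its groups did not overlap, but it did not pass (0.27, adjusted p = 0.0806). It passed once GC and length trends were removed (0.24, adjusted p = 0.0291), with quantile normalization (0.0292) and after median centring (0.0484).

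None of the 7 sirtuin genes, which encode NAD-dependent deacylases, passed, and their log2 changes ran from -0.20 to 0.13. Sirt2, a mainly cytosolic tubulin and histone deacetylase, was listed at 88.40, 91.06 and 90.40 FPKM with LPC and 99.48, 100.89 and 100.03 FPKM with vehicle. These were tight groups that did not overlap, yet with a small log2 change (-0.15, SE 0.08, adjusted p = 0.221). It passed once GC and length trends were removed (-0.19, adjusted p = 0.0375). Sirt1, a nuclear deacetylase of histones and transcription factors, averaged 7.81 ± 0.815 and 7.03 ± 0.263 FPKM (0.13, adjusted p = 0.402), and passed in that fit (0.25, adjusted p = 0.0236). The mitochondrial Sirt3, named after its values were seen, averaged 6.46 ± 0.844 and 7.55 ± 0.573 FPKM (-0.20, adjusted p = 0.223) and also passed in that fit (-0.26, adjusted p = 0.031). Of the Sirt3 transcript, 34.9% is shared with other annotated genes. The mitochondrial Sirt4, the lowest of the family, averaged 4.49 ± 0.508 and 4.39 ± 0.925 FPKM (0.04, adjusted p = 0.88).

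The DNA methyltransferases did not pass. Dnmt1, which copies methylation onto new strands in dividing cells, was listed at 67.11, 68.05 and 50.65 FPKM with LPC and 57.40, 60.62 and 50.45 FPKM with vehicle (0.13, interval -0.12 to 0.38, adjusted p = 0.474). LPC replicates 1 and 2 lay above all vehicle libraries and LPC replicate 3 near the lowest of them. Without LPC replicate 3 the log2 change of Dnmt1 was 0.27 (adjusted p = 0.0762). The de novo enzyme gene Dnmt3a averaged 10.4 ± 1.62 FPKM with LPC and 11.2 ± 0.991 FPKM with vehicle (-0.11, adjusted p = 0.547), and Dnmt3b averaged 2.82 ± 0.0889 and 3.07 ± 0.226 FPKM (-0.09, adjusted p = 0.55).

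Of the TET genes, which encode the dioxygenases that oxidise methylated cytosine, Tet2 fell. It was listed at 2.82, 2.93 and 2.28 FPKM in LPC replicates 1 to 3, against 3.61, 4.27 and 3.69 FPKM in vehicle replicates 1 to 3, without overlap. The log2 change was -0.40 (SE 0.11, limma adjusted p = 0.0261), 30.6% lower in the mean, and -0.24 once GC and length trends were removed (adjusted p = 0.0365). It did not pass without LPC replicate 1 (adjusted p = 0.06), LPC replicate 3 (-0.32, adjusted p = 0.0598) or either of vehicle replicates 1 (0.0637) and 2 (0.121). Tet3, the more abundant of the expressed pair, was listed at 8.01, 9.15 and 6.29 FPKM with LPC and 10.63, 11.26 and 8.63 FPKM with vehicle. The Tet3 groups overlapped, with a log2 change of -0.35 (adjusted p = 0.0898). Tet3 was past the threshold once GC and length trends were removed (-0.24, adjusted p = 0.0464), without LPC replicate 2 (-0.46, adjusted p = 0.0368) and without vehicle replicate 3 (-0.45, adjusted p = 0.0462). Tet1 was at 0.09, 0.12 and 0.10 FPKM with LPC and 0.22, 0.19 and 0.15 FPKM with vehicle, below the limit for testing.

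Transcript length moved with the log2 changes. The members' transcripts had a median of 4466 bases, against 2810 for tested genes, and the longest was 19823 bases. Across the 58 members the log2 change correlated with log2 length at r = -0.44, and across 10043 tested genes at r = -0.29. These points share the same 6 libraries, and genes are not independent replicates. Without LPC replicate 3 the values were -0.22 and -0.08. LPC replicate 3 was the lowest of the 6 libraries for 36 of 58 members (62.1%), against 38.9% of tested genes, and for 25 of the 29 longer members and 11 of the 29 shorter ones. The median log2 change of the members was -0.11, against -0.04 for tested genes, with 42 of 58 members (72.4%) and 58.3% of tested genes below 0. It was -0.03 for members and -0.02 for tested genes without LPC replicate 3, and -0.02 for members once GC and length trends were removed. Removing the trends fixes the mean change and the length slope of all tested genes at 0, so a smaller lean in that fit was partly built in. Without LPC replicate 2 the median of the members was -0.16. What lay behind the lean was not tested. Kdm6b, Hdac7 and Kdm3a passed both without LPC replicate 3 and with the trends removed. Without LPC replicate 3 the log2 changes of further members that did not pass were -0.04 for Setd2, -0.04 for Suz12, -0.03 for Dnmt3a and -0.22 for Tet3. LPC replicate 3 was the lowest LPC library for each of these genes, so leaving it out could only raise their values. The value of Dnmt1 moved away from 0, from 0.13 to 0.27.

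**Figure D3:**
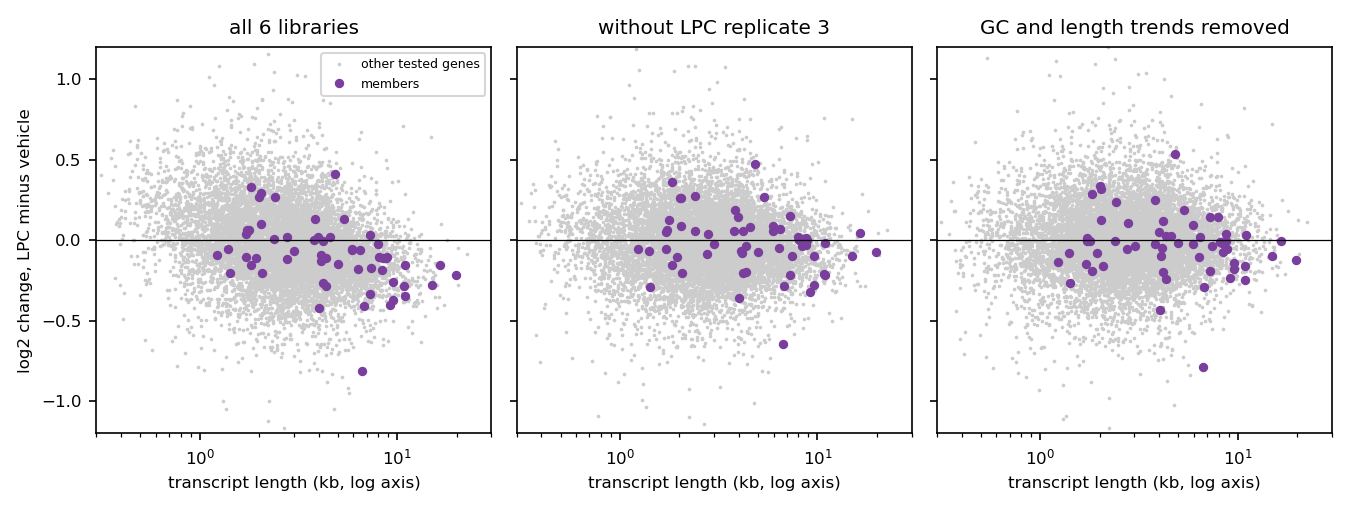
Log2 change, LPC minus vehicle, against transcript length in kilobases on a log axis, for members (purple) and other tested genes (grey), with all 6 libraries, without LPC replicate 3 and with GC and length trends removed; a few grey points lie beyond the axes. The downward slope of the members (r = -0.44) is weaker without LPC replicate 3 (r = -0.22) and with the trends removed (r = -0.17). The removal itself fixes the slope over all tested genes at 0.

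Paralogs of the same enzyme class were compared within each library, as the log2 ratio of FPKM + 1. The 5 pairs were tested with an exact two-sided permutation test, whose smallest possible p is 0.1 with 3 against 3 libraries. The ratio of Kdm6b over Kdm6a was 1.74, 1.39 and 1.51 in LPC replicates 1 to 3, against 2.25, 2.36 and 2.30 in vehicle replicates 1 to 3 (difference -0.75, exact p = 0.1, 0.25 adjusted over the 5 pairs). All LPC libraries lay below the vehicle libraries for this pair. With Kdm6a little changed, this ratio largely repeats the fall of Kdm6b and is not a separate result. The ratio of Dnmt3a over Dnmt1 was -2.65, -2.39 and -2.36 with LPC and -2.17, -2.30 and -2.21 with vehicle, likewise without overlap (-0.24, exact p = 0.1, adjusted 0.25). The ratio of Ezh2 over Ezh1 averaged 3.03 ± 0.15 with LPC and 2.74 ± 0.16 with vehicle (0.28, exact p = 0.2, adjusted 0.333). Those of Tet3 over Tet2 (0.06, exact p = 0.6) and of Ep300 over Crebbp (0.02, exact p = 0.8) had differences near 0 whose sign turned under some alternatives.

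**Figure D4:**
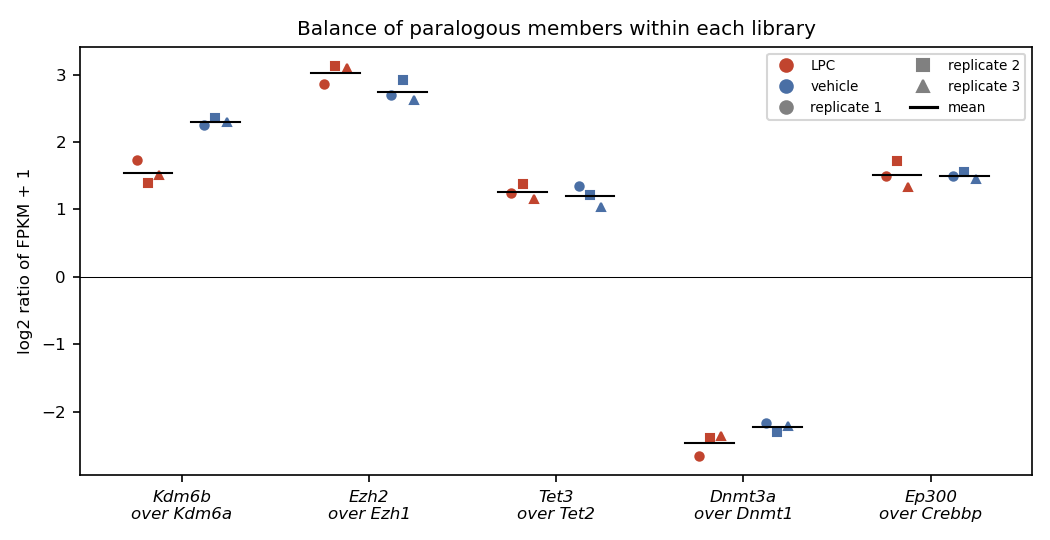
Log2 ratio of FPKM + 1 of 5 paralog pairs in each library, LPC (red) left of vehicle (blue) in each pair, with the replicate number shown by the marker and the group mean as a black line. LPC libraries lie below vehicle libraries for Kdm6b over Kdm6a and Dnmt3a over Dnmt1, and the groups overlap for the other 3 pairs.

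Genes that work with these enzymes were taken from 11 lists with 120 tested genes. Of these 8 rose and 14 fell (18.3% called, against 13.7% of all tested genes). Genes that passed under all 14 alternatives were Phf1, Pcgf5, Kat2a and Mat2a. Among 7 tested accessory subunits of PRC2, 2 fell, Phf1 and Aebp2. Phf1, which encodes a Polycomb-like protein that binds H3K36 trimethylation, was listed at 6.56, 5.69 and 5.76 FPKM with LPC and 8.38, 8.78 and 8.56 FPKM with vehicle (log2 change -0.45, limma adjusted p = 0.009). Among 19 PRC1 subunits, 2 fell, Pcgf5 and Yaf2. Pcgf5, a subunit of variant PRC1, was listed at 65.84, 73.04 and 62.26 FPKM with LPC and 88.73, 89.47 and 92.31 FPKM with vehicle (-0.42, adjusted p = 0.00842). Among 11 subunits of the H3K4 methyltransferase complexes, 2 rose, Ash2l and Men1 (both 0.30, limma adjusted p = 0.04 and 0.046). Among 14 other lysine methyltransferases 2 rose, Smyd2 and Smyd5, and 1 fell, the H3K79 methyltransferase gene Dot1l, with 39.21, 39.02 and 30.26 FPKM with LPC and 52.15, 55.67 and 50.17 FPKM with vehicle (-0.54, adjusted p = 0.00678). None of 5 other JmjC demethylases or 3 BET readers passed.

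Among 11 other acetyltransferases 1 rose and 1 fell. Kat2a, which encodes GCN5 of the SAGA complex, was listed at 20.88, 19.37 and 17.82 FPKM with LPC and 13.50, 14.11 and 13.59 FPKM with vehicle (0.46, limma adjusted p = 0.00705), and the coactivator gene Ncoa2 had a log2 change of -0.40. Among 20 corepressor subunits of deacetylases 2 fell, the NuRD helicase gene Chd3, with a mean of 11.5 ± 1.52 FPKM with LPC and 17.4 ± 1.70 FPKM with vehicle (-0.56, adjusted p = 0.00695), and the CoREST gene Rcor3 (-0.52). Among 10 readers and partners of DNA methylation 1 rose and 3 fell. Uhrf1, which recruits Dnmt1 to replicated DNA, was listed at 71.67, 70.96 and 63.09 FPKM with LPC and 57.21, 53.92 and 49.24 FPKM with vehicle (0.35, adjusted p = 0.0244). It missed the threshold with quantile normalization (adjusted p = 0.0529) and without LPC replicate 1 (0.0808), vehicle replicate 1 (0.0555), vehicle replicate 2 (0.0767) or vehicle replicate 3 (0.0973). Uhrf2, its paralog, Gadd45b and Gadd45g had log2 changes of -0.41, -0.45 and -0.39. Of 8 arginine methyltransferases 1 rose, Prmt1 (0.43). Among 12 genes of cofactor supply 1 rose, Mat2a, which makes the methyl donor S-adenosylmethionine, with 67.86, 77.70 and 69.83 FPKM with LPC and 54.77, 53.72 and 52.24 FPKM with vehicle (0.41, adjusted p = 0.00896). The other 3 calls there were falls of the acetyl-CoA synthetase gene Acss2 (-0.33) and the NAD synthesis genes Nmnat1 (-0.44) and Nmnat3 (-0.52). With no filter on low values 4 of the 22 calls in these lists remained, and 7 did without vehicle replicate 1, 10 without LPC replicate 1, 11 without vehicle replicate 2, 15 without vehicle replicate 3 and 19 each without LPC replicate 2 or LPC replicate 3. The 3 lost without LPC replicate 3 were Aebp2 (-0.27, limma adjusted p = 0.0556), Ncoa2 (-0.27, adjusted p = 0.103) and Nmnat1 (-0.37, adjusted p = 0.0592). Yaf2, Ash2l, Men1, Smyd2, Uhrf1 and Acss2 each missed the threshold whichever vehicle library was left out.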

How the data were processed

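Total RNA of 6 libraries (3 LPC, 3 vehicle) was sequenced on a BGISEQ-500, aligned to GRCm38 with Bowtie2 and quantified as FPKM by RSEM, per the labels' protocols; their versions are unknown. The authors deposited FPKM and not counts, so no count test was used. Depth was estimated from the whole-read steps of low values of genes with 1 listed transcript. FPKM is relative to each library's total, so abundant genes can lower the values of others.

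Of the gene identifiers, 99.3% matched the RefSeq table of GRCm38.p6, and 24 symbols turned into dates were restored. Transcript length and GC share (GENCODE M21) were had for 99.1% of tested genes and all 58 members. The package limma 3.58.1 (R 4.3.3), with a mean-variance trend and group alone in the model, was fitted on log2(FPKM + 1) of 10138 genes and tested on simulated data. BLAST 2.17.0 looked for near-identical transcripts of 100 bases or more. Named genes were all changed members, a fixed set of main enzymes, the highest and lowest member of each of 13 role groups, and up to 4 changed genes of each further list. The members, lists, rules and alternatives were chosen with earlier results of these data known. Alternatives were quantile normalization, median centring, no filter, only genes averaging at least 5 FPKM, 0.1 as the pseudocount, the replicate block, GC and length trends (natural splines, 4 degrees of freedom), both together, and leaving out each library.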

Additional observations from a re-analysis of the deposited data

How the results depend on the processing

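The files give no read counts, so depth limits cannot be set per gene, and members under 5 FPKM (among them Kdm7a and Tet2) change most on the log2 scale with the pseudocount. Kdm6b kept its direction and its call in all 14 alternatives. Members called higher numbered 2 as reported, 4 with median centring, 0 with no filter on low values, 5 with removal of GC and length trends and 0 to 1 without 1 library. Members called lower numbered 5 as reported, 1 with no filter, 3 with a mean FPKM of 5 or more, 10 with removal of GC and length trends and 1 to 8 without 1 library. With no filter, 16899 genes were tested, and 464 of them passed (236 higher, 228 lower), against 1392 (590 higher, 802 lower) as reported. After removal of GC and length trends 2334 passed, 1175 of them higher, and without 1 library 513 to 2026 passed (225 to 809 higher, 288 to 1217 lower). Of all calls 648 were higher and 620 lower with quantile normalization, and 646 and 571 with median centring.

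Same-numbered LPC and vehicle libraries had deviations from their group means that correlated at 0.02, 0.56 and 0.41. These values do not settle whether the numbers pair the samples, and the main fit did not pair them. With the replicate block (replicate number in the model), 5 members were called higher and 12 lower. In that fit 2841 genes passed (28% of those tested, 1180 higher, 1661 lower). Members gained there were Crebbp, Ep300, Ezh1, Hdac10, Hdac2, Kdm2b, Kmt2c, Kmt2e, Setd4 and Tet3. With the replicate block and removal of GC and length trends 7 members were called higher and 10 lower. There 2861 genes passed (28.5% of those tested, 1456 higher, 1405 lower). Dnmt1 passed in that fit only (0.19, limma adjusted p = 0.026). Replicates 2 and 3 correlated best with their own number, against -0.45 for LPC replicate 2 with vehicle replicate 3 and -0.5 for LPC replicate 3 with vehicle replicate 2. Vehicle replicate 1 correlated best with LPC replicate 3 (0.06). If the numbers do pair the samples, the main fit ignored that pairing.

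Sign changes were looked for in 38 members and 5 ratios, not in the other 20 members or the neighbouring genes. Those that turned sign did not pass in either fit. With quantile normalization they were Ezh2 (-0.03), Kdm5d (0.06), Kdm6a (0.02) and Ep300 over Crebbp (-0.02), and with median centring Kdm5d (0.02). With removal of GC and length trends they were Kdm5a (0.03), Kdm5c (0.02), Kdm5d (0.14), Kdm6a (0.09), Suz12 (0.02) and Tet3 over Tet2 (-0.01), and the 5 genes had the same values with the replicate block added. Leaving out 1 library gave ranges of -0.05 to 0.1 for Ezh2, -0.05 to 0.15 for Kdm4a, -0.13 to 0.07 for Kdm5c, -0.11 to 0.08 for Kdm5d and -0.16 to 0.09 for Kdm6a. They were -0.3 to 0.04 for Kmt2a, -0.14 to 0.05 for Setd1a, -0.09 to 0.16 for Sirt4, -0.02 to 0.13 for Tet3 over Tet2 and -0.08 to 0.11 for Ep300 over Crebbp.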
